A study of Drosophila melanogaster with 3 samples.

Results

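Small nucleolar RNA (snoRNA) genes were examined for binding of Prospero, a homeodomain transcription factor that acts in neuroblast daughter cells, in Drosophila melanogaster embryos. The members were the genes with the biotype snoRNA in the Ensembl BDGP6 annotation on the main chromosome arms, 269 of 18164 annotated genes when transposable elements are left out. All 269 also had the biotype snoRNA and the same coordinates in the RefSeq annotation. The list includes 16 small Cajal body RNAs (scaRNAs), which the annotation files under the same biotype. A snoRNA gene counted as near a peak when a summit, the position marked inside each peak by the peak caller, lay in the gene or within 500 bp of it.

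Binding was measured by ChIP-seq in 3 biological replicates of a single group. These were whole embryos aged 2 to 18 h, of both sexes, from a transgenic line with green fluorescent protein at the C terminus of Prospero. The precipitation used an antibody to the tag, per the sample descriptions, although the antibody field reads pros. Embryos of this age range hold many cell types, so a peak does not say in which cells the site was bound, and no expression was measured. The optimal set, the peaks kept by the authors after a threshold on reproducible ranks, held 6215 peaks, and the list from pooled reads held 30000, as did each replicate list. Ranks run from 1 for the strongest peak of a list, and a replicate rank is that of the strongest peak with a summit within 150 bp. The files give no read counts, so depth is unknown and intervals on shares (exact binomial, 95%) cover counting error only. There was no second condition to test against, so shares are given as descriptions.

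snoRNAs guide the chemical modification of other RNAs in the nucleolus. Those with C and D boxes direct methylation of riboses by the enzyme fibrillarin, and those with H and ACA boxes direct the conversion of uridine to pseudouridine by dyskerin, which is Nop60B in flies. U3 is a box C/D RNA that acts in the cleavage of the ribosomal RNA precursor and not in modification, and scaRNAs guide modification of spliceosomal RNAs. Most snoRNAs of animals lie in introns of other genes, the hosts, and are cut out of the spliced intron, so they are made from the promoter of the host. A few, U3 among them, have promoters of their own, which in flies carry the proximal sequence element A (PSEA) that is also found upstream of spliceosomal RNA genes.

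The sequences under 3 summits are shown as examples of where a summit can lie relative to a snoRNA gene or its host. They do not stand for their classes, since scaRNA:MeU1:95C-A24 and snoRNA:Or-CD14, with no host, had summits 315 and 392 bp away and the hosted snoRNA:Psi28S-2566 had a summit inside it. The first pair are windows of 100 bases to either side of a summit that lay beside or inside a snoRNA gene with no host, read on the strand of the gene from the RefSeq copy of the assembly, with bases of the snoRNA gene in capitals. The summit is the middle base of each window. snoRNA:Psi28S-2622 is at chr3L:1488773-1488973 (dm6, plus strand) and snoRNA:Psi28S-3342 at chrX:5524338-5524538 (minus strand).
snoRNA:Psi28S-2622: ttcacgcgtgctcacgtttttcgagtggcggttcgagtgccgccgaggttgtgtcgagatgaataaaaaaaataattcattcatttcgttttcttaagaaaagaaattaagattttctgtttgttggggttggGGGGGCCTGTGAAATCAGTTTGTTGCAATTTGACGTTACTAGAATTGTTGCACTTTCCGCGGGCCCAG
snoRNA:Psi28S-3342: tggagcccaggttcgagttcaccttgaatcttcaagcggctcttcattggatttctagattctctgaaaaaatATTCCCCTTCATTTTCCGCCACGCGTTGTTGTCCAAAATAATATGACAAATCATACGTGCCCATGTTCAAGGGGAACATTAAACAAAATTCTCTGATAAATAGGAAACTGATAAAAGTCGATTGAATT

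In the first window 68 bases belong to the snoRNA and the summit falls 33 bp before its first base. In the other, 128 bases belong to the snoRNA and the summit falls 27 bp inside it. The third window, at the promoter of a host, the non-coding gene Uhg2, holds the weakest of the 22 summits near snoRNA genes. It is at chr2L:9894984-9895184 (minus strand), and its capitals mark the 20 transcribed bases at its end.
Uhg2: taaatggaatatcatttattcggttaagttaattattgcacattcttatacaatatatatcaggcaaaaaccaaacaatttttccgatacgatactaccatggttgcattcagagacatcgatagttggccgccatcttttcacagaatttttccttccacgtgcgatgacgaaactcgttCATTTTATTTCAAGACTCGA

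There the summit was 81 bp upstream of the Uhg2 start site and 177 bp upstream of its closest snoRNA.

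Few snoRNA genes were near a Prospero summit, and the share was higher in the small class with no host than among hosted genes. Of the 269 genes, 23 had a summit of the optimal set within 500 bp (8.55%, interval 5.50% to 12.6%). Set beside this, 4.46% of all positions on the main arms would place a gene of the median snoRNA length, 134 bp, within 500 bp of a summit. The same share was 17.4% for protein-coding genes, which are longer, 14.8% for transfer RNA (tRNA) genes, 50% for small nuclear RNA (snRNA) genes and 7.69% for microRNA genes. In the pooled list 52 of the 269 were near a summit (19.3%, interval 14.8% to 24.6%), close to the 18.5% of positions and below the 45.1% of protein-coding genes. The 23 genes were near 22 distinct summits, whose ranks in the optimal set ran from 19 to 5877 with a median of 2876. The member nearest the limit on the inside was snoRNA:U49:66Da, 472 bp from a summit, and the nearest on the outside was snoRNA:Me18S-G1620, at 540 bp.

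The 23 near genes divided into 9 inside a host with a promoter summit, 2 inside a host without one, and 12 with no host on their own strand. A promoter summit is one within 500 bp of an annotated start site. Only 22 of the 269 snoRNA genes had no gene of another type around them on the same strand, so 12 of 22 of these were near a summit (54.5%, interval 32.2% to 75.6%). Of the 247 snoRNA genes inside a host, 11 were near a summit (4.45%, interval 2.24% to 7.83%), which is close to the 4.46% of all positions. The intervals of the 2 classes did not overlap, but the class with no host was set apart after the positions were seen. The gap between the intervals is therefore a description and not a test. When optimal-set peaks had to be matched in both other replicates, the hosted near genes numbered 4 without replicate 1 (1.62%), 7 without replicate 2 (2.83%) and 4 without replicate 3 (1.62%), and those with no host 12 each time. These sets held fewer peaks (4421, 4560 and 4452), and the share of positions near them was not computed. At 1000 bp, 13 genes with no host and 39 hosted genes were near a summit. The wider limit takes in more positions, and their share at 1000 bp was not computed. Neighbouring snoRNA genes share summits, and when neighbours within 1000 bp or in the same host were counted once, 10 of 17 loci with no host (58.8%, interval 32.9% to 81.6%) and 9 of 90 hosted loci (10%, interval 4.68% to 18.1%) had a near member. In the pooled list the shares were 81.8% with no host (18 of 22) and 13.8% inside a host (34 of 247).

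**Figure D1:**
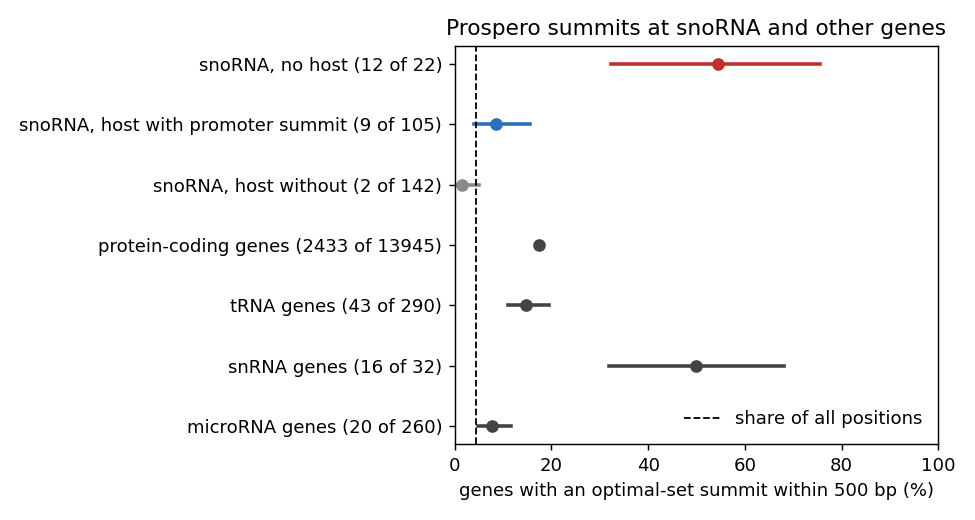
Share of genes with an optimal-set summit within 500 bp (x axis, percent) for the 3 classes of snoRNA genes and for other gene types (y axis, counts in brackets). Points are shares, bars exact binomial 95% intervals, and the dashed line the 4.46% of all positions; snoRNA genes with no host, at 54.5%, and snRNA genes, at 50%, lie to the right of the other classes.

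The number of near genes with no host was the same in each replicate, while the hosted number varied. Among the 6215 strongest peaks of each replicate list, 12 of the 22 genes with no host were near a summit in replicate 1, 12 in replicate 2 and 12 in replicate 3, and the 12 near genes of the optimal set were near a summit in all 3. For hosted genes the numbers were 10, 7 and 17 of 247, or 11.3 ± 5.13 (SD, n = 3). Of the 11 hosted genes near an optimal-set summit, 4 were near a summit in all 3 replicates. The optimal set is itself built from the reads of these replicates, so this is not an independent repeat.

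**Figure D2:**
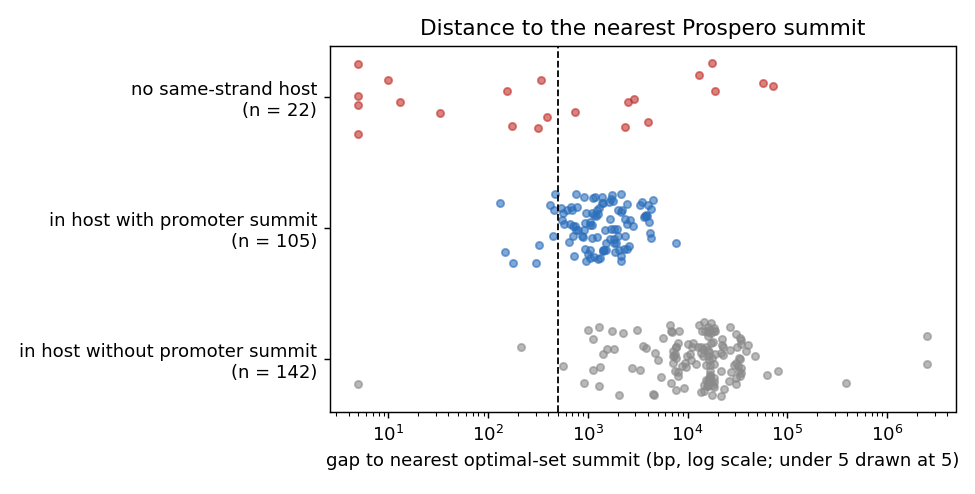
Gap in bp from each of the 269 snoRNA genes to the nearest optimal-set summit (x axis, log scale, values under 5 drawn at 5), by host class (y axis). Each point is a gene and the dashed line marks 500 bp; genes with no host reach down to a gap of 0, and genes in hosts with a promoter summit lie between 132 and 7679 bp.

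The strongest summit at any snoRNA gene was at snoRNA:Psi28S-2622 (FBgn0086670, 3L, 1488906 to 1489045, plus strand), named as a pseudouridine guide for 28S ribosomal RNA. The summit at 1488873 ranked 19 in the optimal set, with a signal of 4831 on the authors' unstated scale. Its rank was 17 in replicate 1, 27 in replicate 2 and 20 in replicate 3, or 21.3 ± 5.13 (SD, n = 3). A further summit, at 1489103 on the other side of the gene, ranked 704 and was at 395, 190 and 650 in replicates 1, 2 and 3. The gene lies within stet, which encodes a rhomboid-type intramembrane protease, but on the opposite strand. The start of a further small non-coding gene, sncRNA:CR43701, is 134 bp from the first summit, and by position the summit cannot be assigned to the snoRNA rather than to that gene or to stet.

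Next in rank was a summit 10 bp before the first base of snoRNA:185 (FBgn0065076, 2R, 19727098 to 19727152), a short gene whose name gives no box class. It ranked 182 in the optimal set, and 203, 272 and 165 in replicates 1, 2 and 3. It lay 369 bp from the start of the glutamate transfer RNA gene tRNA:Glu-TTC-1-5. Both genes were thus beside summits that ranked high in every list.

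snoRNA:Psi28S-3342 (FBgn0086667, X, 5524302 to 5524465) was the most isolated of the bound genes apart from snoRNA:Me28S-C2789. Its summit, at 5524438 within the gene, ranked 827 in the optimal set, and 828, 1402 and 734 in replicates 1, 2 and 3 (mean 988 ± 362, SD, n = 3). The nearest start of any other gene was 6938 bp away. snoRNA:Psi18S-176 (FBgn0086659, 2R, 23839911 to 23840064), a pseudouridine guide for 18S ribosomal RNA, likewise had its summit inside the gene, 30 bp from its first base. That summit lay 543 bp from the start of the non-coding gene lncRNA:CR44805. It ranked 1402, and 1392, 2762 and 1286 in replicates 1, 2 and 3. In both cases replicate 2 gave the lowest standing of the 3.

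The U3 genes differed among themselves. The paired copies snoRNA:U3:54Aa (FBgn0065048, 2R, 17143521 to 17143730, minus strand) and snoRNA:U3:54Ab (FBgn0065047, 2R, 17145617 to 17145826, plus strand) each had 2 summits of the optimal set. Those of U3:54Aa ranked 820, inside the gene, and 1901, 150 bp upstream of it. The first was at ranks 843, 928 and 984 in replicates 1, 2 and 3. The stronger of U3:54Ab ranked 642, 13 bp past the end of the gene, and was at 945, 585 and 1073. Its weaker summit, at rank 2885, was at 1087, 11515 and 4208, so its standing depended on the replicate. The third copy, snoRNA:U3:9B (FBgn0065046, X, 10348125 to 10348337), had its nearest summit of the optimal set 17640 bp away. In the pooled list a summit fell inside U3:9B at rank 13069.

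The 54A copies could not be told apart in part of their length. Their 210 gene bases were identical, as were the 207 bases before the first, and 60.8% and 60.1% of the 31-base words within 500 bp of U3:54Aa and U3:54Ab occurred once on the main arms. How the authors placed reads with more than one match is not given in the sources used here, so the division of signal between the copies is uncertain. For the other 10 near genes with no host the share of such words was lowest at scaRNA:MeU1:95C-A24 (86.7%) and snoRNA:Psi28S-3342 (88.2%). Each 54A copy also has a leucine transfer RNA gene close by (tRNA:Leu-AAG-1-2 and tRNA:Leu-AAG-1-3), and the summit of rank 1901 lay 166 bp from the start of the first.

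PSEA was looked for as TTCNCAA, a core of its consensus, on the gene's strand within 100 bp before the first base. This motif was chosen after the positions of the summits were known. It was found at 4 of the 22 snoRNA genes with no host, at 9 of 247 hosted genes (3.64%), at 31 of 32 snRNA genes (96.9%) and at 3.31% of protein-coding genes. The 4 were the 3 U3 genes, with the core starting 59 bases before the gene in each, and snoRNA:Me18S-A1806, a methylation guide of 18S ribosomal RNA, with the core 66 bases before. Of these, the 54A copies had a summit and U3:9B and Me18S-A1806 had none in the optimal set. The upstream stretches of the latter are shown since they carry the core without a nearby summit, with 100 bases before the gene and its first 20 bases and the core in capitals, at chrX:10348025-10348144 and chr3L:7639617-7639736 (both plus strand).
snoRNA:U3:9B: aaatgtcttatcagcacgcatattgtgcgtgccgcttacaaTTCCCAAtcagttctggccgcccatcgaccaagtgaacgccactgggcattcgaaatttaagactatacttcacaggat
snoRNA:Me18S-A1806: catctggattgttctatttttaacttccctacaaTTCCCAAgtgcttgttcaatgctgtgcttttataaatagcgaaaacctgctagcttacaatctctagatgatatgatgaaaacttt

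The remaining near genes with no host had weaker summits or summits farther off. snoRNA:Me28S-C2789 (2L, 21034775 to 21034923), a methylation guide of 28S ribosomal RNA, lies in CG42238 on the opposite strand. Its summit was 156 bp upstream, at rank 1465 (1407, 1409 and 1813 in replicates 1, 2 and 3) and 17364 bp from the nearest start of another gene. scaRNA:MeU1:95C-A24 had its summit 315 bp away at rank 2866. That summit was 7 bp from the start of snRNA:U1:21D, a gene of the U1 spliceosomal RNA. snoRNA:Or-CD14, an orphan box C/D RNA with no assigned target, lies in CG4238 on the opposite strand, and its summit was 392 bp away at rank 3115 (2073, 5526 and 3096). snoRNA:Psi28S-1153 and 2 neighbours of unknown box class on 2R shared 1 summit at 13558022, at rank 4394 (5179, 3699 and 5000), which lay inside one of the neighbours and 523 bp from the start of CG13334.

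**Figure D3:**
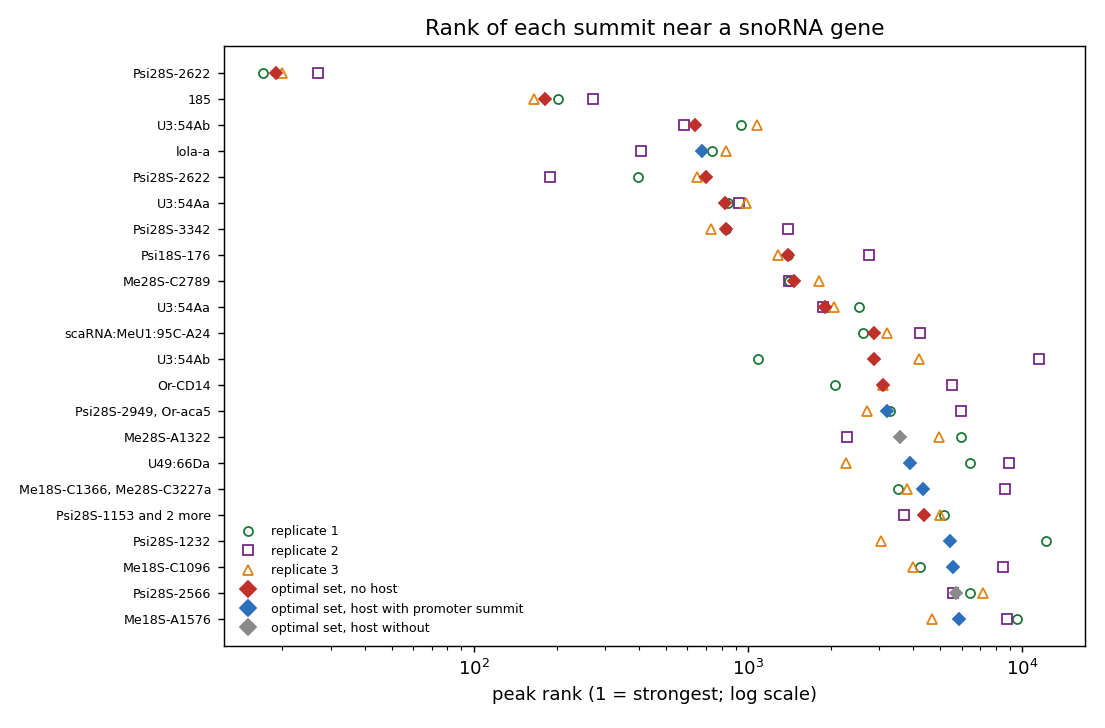
Peak rank (x axis, log scale, 1 is the strongest) of the 22 optimal-set summits near snoRNA genes, ordered by rank and labelled by the genes within 500 bp (y axis). Filled diamonds are ranks in the optimal set coloured by host class, open symbols the ranks of the matching peak in each of the 3 replicate lists; summits at genes with no host fill most of the upper part, led by rank 19.

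Of the 13 distinct summits at genes with no host, 11 were in the stronger 50% of the optimal set, and their median rank was 1402. Of the 9 at hosted genes 1 was, and the median rank of the 7 in hosts with a promoter summit was 4349. Other genes were close to some of the no-host summits, and 6 of the 13 had the start of another gene within 500 bp. Others had one just past this limit, at 523, 539 and 543 bp. A tRNA or snRNA gene lay within 500 bp of 5 of the 269 members and of 4 of the 23 near ones. Without such members the no-host share was 8 of 18 (44.4%, interval 21.5% to 69.2%). The part of neighbouring genes in the result was not tested beyond this. Of the 12 genes in no other gene on either strand, 9 were near a summit, and of the 10 inside a gene of the opposite strand, 3 were.

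Of the 10 genes with no host and no summit of the optimal set, 6 were near a summit of the pooled list. snoRNA:Or-ACA7, scaRNA:MeU1b-A234 and snoRNA:Or-ACA6, which lie in egr (eiger, a ligand of the tumour necrosis factor family) on the opposite strand, shared a summit at pooled rank 9973. snoRNA:Or-aca4 had a summit within the gene at rank 12615, and the summit closest to snoRNA:Psi18S-301 was 97 bp away at rank 19456. U3:9B is the sixth. The nearest pooled summits of snoRNA:Or-CD13, snoRNA:Me18S-A1806, snoRNA:Me18S-G1506 and snoRNA:Or-ACA8 were 1194, 4640, 12871 and 52057 bp away.

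Box class did not separate the near genes as the host did. By their names, 10 of 109 box C/D genes were near an optimal-set summit (9.17%, interval 4.49% to 16.2%) and 8 of 114 box H/ACA genes (7.02%, interval 3.08% to 13.4%). Of the scaRNAs 1 of 16 was near, and of 30 genes whose names give no class, 4 were. With no host, 4 of 8 box C/D and 4 of 9 box H/ACA genes were near. By arm, 13 of the 96 snoRNA genes on 2R were near, 4 of 41 on 2L, 3 of 52 on 3L, 1 of 48 on 3R and 2 of 31 on X. Shares of positions or of other genes were not computed by arm, and several of the 13 on 2R share a summit. The single member on chromosome 4 was not near.

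Host genes had promoter summits more often than their snoRNAs were near one. Of 95 host genes 32 had a promoter summit (33.7%, interval 24.3% to 44.1%). The protein-coding hosts had one in 29 of 84 cases (34.5%, interval 24.5% to 45.7%), beside 11.8% of all protein-coding genes. Any annotated start counted, so a gene with several starts had more room for a summit, and the shares were not adjusted for this. The non-coding hosts had one in 3 of 11 cases (27.3%, interval 6.02% to 61.0%), beside 10% of all non-coding RNA genes other than microRNAs. The 11 include CR33222, a pseudogene without a promoter summit, and the 10% does not cover pseudogenes. The 32 hosts hold 105 snoRNA genes, of which 9 were near a summit (8.57%, interval 3.99% to 15.6%). Of 142 snoRNA genes in other hosts 2 were (1.41%, interval 0.171% to 5.00%). In 25 of the 32 hosts no snoRNA was near an optimal-set summit. The same optimal-set summits set the host classes, so the difference between the 105 and the 142 follows in part from the definition. It was absent in the pooled list, where 14 of the 105 (13.3%) and 20 of the 142 (14.1%) were near a summit. When optimal-set peaks had to be matched within 150 bp among the strongest 6215 of both other replicates, the hosts with a promoter summit numbered 17 without replicate 1, 21 without replicate 2 and 17 without replicate 3, and the near snoRNA genes inside them 3, 6 and 3. These sets held fewer peaks, and the share of all protein-coding genes with a promoter summit was not computed for them.

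In hosts with a promoter summit, most of the near snoRNA genes began within 500 bp of a host start site. Of the 247 hosted genes, 227 lay wholly in host introns. Inside hosts with a promoter summit, 7 of the 15 snoRNA genes that began within 500 bp of a host start site were near a summit (46.7%, interval 21.3% to 73.4%). From 500 to 1000 bp 1 of 26 was, and beyond 1000 bp 1 of 64. The near genes began a median of 412 bp from a host start, and the others in such hosts 1425 bp. A summit counted at the promoter is within 500 bp of the start, so the distance to the snoRNA follows in part from the definition. The start nearest the snoRNA was used, in whichever host, and it was not always the start with the summit. Among the 15, snoRNA:Or-CD15 began 60 bp from the start of Uhg7, which had no promoter summit. It lay 1429 bp from its nearest summit.

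**Figure D4:**
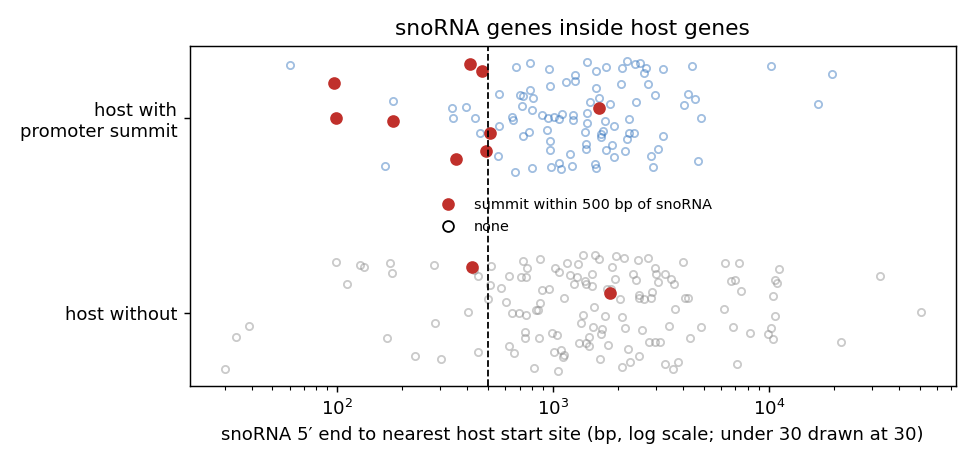
Distance in bp from the first base of each of the 247 hosted snoRNA genes to the nearest host start site (x axis, log scale, values under 30 drawn at 30), for hosts with and without a promoter summit (y axis). Filled red points are snoRNA genes with an optimal-set summit within 500 bp, open points the rest, and the dashed line marks 500 bp; 7 of the 9 red points in the upper row lie at or below 500 bp.

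The Uhg genes are non-coding hosts whose only known products are the snoRNAs they hold. Of 7 such hosts, Uhg2, Uhg4 and Uhg5 had a promoter summit, and Uhg1, Uhg3, Uhg7 and Uhg8 had none. The 4 snoRNA genes in Uhg7 also lie in RpL23A, which had a promoter summit at rank 4823, so they count as inside a host with one. The Uhg4 summit, 33 bp upstream of its start on 2R at 9095240, ranked 3204, and 3295, 5978 and 2720 in replicates 1, 2 and 3. It was within 500 bp of snoRNA:Psi28S-2949 and snoRNA:Or-aca5, the first 132 bp away. The Uhg5 summit, 33 bp downstream of its start, ranked 4349 (3506, 8650 and 3796) and was near snoRNA:Me18S-C1366 and snoRNA:Me28S-C3227a, 2 of the 11 snoRNA genes in that host. The Uhg2 summit ranked 5877 (9526, 8788 and 4687) and was near snoRNA:Me18S-A1576. In replicate 2 each of these ranked lower than in replicate 3.

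Ribosomal protein genes, which often carry snoRNAs in their introns, made up 29 of the hosts. A promoter summit was present at 13 of the 29 (44.8%, interval 26.4% to 64.3%) and at 20 of 64 ribosomal protein genes that hold no snoRNA (31.2%, interval 20.2% to 44.1%), and these intervals overlapped widely. All 13 host summits lay between 24 bp upstream and 43 bp downstream of a start site, with ranks from 1928 (RpL11) to 6159 (RpS16). Of the 13, 4 were matched in the strongest 6215 peaks of all 3 replicates. A near snoRNA was found in 3 of these hosts. In RpL14 the summit, 5 bp upstream of the start, ranked 3892 (6445, 8953 and 2267 in replicates 1, 2 and 3) and lay 472 bp from snoRNA:U49:66Da. RpL3 had its strongest promoter summit at rank 2947 (4240, 8515 and 1410), 9 bp downstream of the start. A weaker one at rank 5562 (4240, 8515 and 3980), 210 bp from the start, lay 301 bp from snoRNA:Me18S-C1096. In replicates 1 and 2 the same peak was matched to both summits. In RpL17 the summit of rank 5454 lay 413 bp from snoRNA:Psi28S-1232. The RpL17 peak was at 12231 in replicate 1 and at 3059 in replicate 3, with no matching peak in replicate 2.

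The 16 other protein-coding hosts with a promoter summit had ranks from 11 to 6095, and in 3 of them the summit was within 50 bp of a start. The strongest was at kis, a chromatin remodeller, at rank 11, and its snoRNA:kis-a begins 10291 bp from the nearest start site. At tou (toutatis, a chromatin protein) the summit ranked 413, with the snoRNA 1641 bp from a start. The tou peak was at 386 in replicate 1 and 571 in replicate 3, with no matching peak in replicate 2. At skd (skuld, a subunit of the Mediator kinase module) the summit ranked 813, with the snoRNA 19684 bp from a start. kra (krasavietz, a regulator of translation) holds 8 snoRNA genes and had a summit 32 bp upstream of a start at rank 849 (768, 1349 and 565). None of its 8 was near a summit. Arpc2, a subunit of the actin-nucleating Arp2/3 complex, holds 17, more than any other host. Its summit, 373 bp downstream of a start, ranked 2639 (1861, 2477 and 4747), and none of the 17 was near it. Among hosts with no promoter summit were dom (domino, a chromatin remodeller) with 15 snoRNA genes, Uhg1 with 16 and RpS5a with 14.

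For 3 of the 11 hosted near genes, the summit lay more than 500 bp from the nearest host start. snoRNA:lola-a, in the long transcription factor gene lola, lay 326 bp from a summit at rank 678 (738, 407 and 829 in replicates 1, 2 and 3), which was 1137 bp from the nearest lola start. snoRNA:Me28S-A1322, in eEF1alpha1 (translation elongation factor 1 alpha), lay 214 bp from a summit at rank 3571 (5997, 2297 and 4951). That summit was 633 bp from the nearest eEF1alpha1 start. snoRNA:Psi28S-2566, in CG3902, had a summit inside the gene at rank 5722 (6423, 5570 and 7181), 1870 bp from the nearest start. The last is the only hosted snoRNA gene of the 247 with a summit of the optimal set within its own bases.

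Of 25 listed genes for snoRNA-protein complexes, their assembly and nucleolar function, 1 had a promoter summit (4%, interval 0.101% to 20.4%), beside 11.8% of all protein-coding genes. The interval holds that share, so a lower one could not be shown with so few genes. The 1 gene was nop5, a core protein of box C/D complexes and itself a host, at rank 3928 (6043, 3925 and 3615 in replicates 1, 2 and 3). Fib, which encodes fibrillarin, Nop60B, Nop56, hoip, NHP2, Gar1 and Nop10, the remaining core proteins, had none. Fib and Nop60B are also hosts, of 1 and 7 snoRNA genes.

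The windows of 100 bp to either side of the 22 near summits were searched on both strands for short motifs. The Prospero core AAGACG was in none of the 22 (interval up to 15.4%), beside 11.3% of all optimal-set summits, so a lower share could not be shown with so few summits. The replication element motif TATCGATA was in none, beside 0.531% of all. The core promoter motif GGTCACACT was in 1, at Uhg5, beside 0.241%. E-boxes (CANNTG) were in 15 (68.2%, beside 64.3%) and GAGAG in 4 (18.2%, beside 40.3%). The PSEA core TTCNCAA was in 2 (9.09%, beside 11.0%), the summit by scaRNA:MeU1:95C-A24 at snRNA:U1:21D and the one upstream of U3:54Aa.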

How the data were processed

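Peak lists in narrowPeak layout on dm6 were used as deposited. Per the deposited file descriptions, each replicate list came from that replicate's alignments and a control, the pooled list from all 3 alignments, and the optimal set from these lists by a threshold on the irreproducible discovery rate. For the aligner, peak caller and read filters, names and settings are not given in the sources consulted. The deposited signal of each peak served only to rank peaks within a list. The deposited −log10 q-value was not used. Whether the labelled replicates came from separate collections is not stated beyond the word biological.

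Summits were the 0-based start plus the offset, written 1-based. Genes, start sites and hosts came from Ensembl release 115, and sequence from the RefSeq copy of the assembly. A host is a gene of another type, transposable elements left out, that holds the whole snoRNA gene on the same strand. Box classes were read from gene names. Counts were made with Python 3.11.15, pandas 2.3.3 and SciPy 1.17.1, and the matching was tested on planted summits. No p-value was computed. Every locus near an optimal-set summit was named. The members, lists and rules were chosen with earlier results of these data known, and the class with no host, PSEA and the 31-base words were added after seeing the positions. Alternatives were distances of 250 and 1000 bp, stronger peaks, 1 summit per peak region, either-strand hosts and each replicate left out.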

Additional observations from a re-analysis of the deposited data

How the results depend on the processing

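The count of near snoRNA genes with no host (12 of 22) ranged from 8 (stronger 50% of peaks, or members near a tRNA or snRNA gene left out) to 13 (1000 bp) over its alternatives, and was 12 with each replicate left out. The count of hosts with a promoter summit (32) was 28 at 250 bp and 37 at 1000 bp, and that of genes near a pooled summit (52) was 42 among the stronger 50% of pooled peaks. At 250 bp, 14 genes were near an optimal-set summit, 33 near a pooled one and 3 inside a host with a promoter summit, and at 1000 bp 52, 101 and 37. Among the stronger 50% of optimal-set peaks, near genes numbered 9, those inside a host with a promoter summit 1 and the hosts with a promoter summit 14. With a replicate left out, the near genes inside such hosts numbered 3 to 6 and the hosts 17 to 21. The mean number of near genes per replicate was 23.3 in the 6215 strongest peaks, 57 over all peaks and 11.7 in the stronger 50% of that number. Shares over all positions and other gene types were computed only at 500 bp with the full optimal and pooled lists. Counts under the other settings therefore have no such share beside them. No paired analysis was possible because there is a single group. Depth is unknown, so it cannot be said how much of the spread between replicates it sets.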
